A study of Mus musculus with 14 samples.

Results

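The 10 genes followed here are markers of T lymphocytes and of the intraepithelial lymphocytes of the gut, measured in the ileum mucosa: Cd3d, Cd3e, Cd3g, Cd8a, Cd4, Gzma, Gzmb, Itgae, Ccl5 and Cd160. They were chosen by gene name, and all 10 were found among the 54532 genes of the table and passed the filter on low counts, which left 13846 genes. The mice were males and were kept on a high fat diet (HFD) for 15 weeks. The paper's methods give an age of 7 to 8 weeks at the start of feeding, whereas the legend of its design scheme gives an older age. The 7 WT mice carried NCoR1 flox/flox alleles without Cre. The 7 IKO mice carried the same alleles and a Cre recombinase under the villin promoter, which is active in intestinal epithelial cells, so that NCoR1, a corepressor of nuclear receptors, was deleted in the epithelium and not by design in lymphocytes. One library was made from the scraped mucosa of each mouse, and the comparison asks what the loss of NCoR1 in the epithelium goes with in the other cells of the mucosa.

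Intraepithelial lymphocytes are T cells that lie between the epithelial cells of the gut. Most of them carry CD8 rather than CD4, many carry the γδ form of the T cell receptor, and they hold granzymes ready for release. Integrin αE, encoded by Itgae, binds E-cadherin on epithelial cells and keeps them there, whereas CD4 T cells lie mainly in the lamina propria and in lymphoid follicles.

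The labels name the cell type as intestinal epithelial cells, and the 13 epithelial genes examined summed to between 22133 and 57939 CPM (read counts relative to the size of the library, which was corrected by the TMM factors). The 10 lymphocyte genes summed to between 133.9 and 396.7 CPM in the same mice. These sums of chosen genes do not measure the share of lymphocyte RNA. The scraped mucosa also held RNA of other cells. Plasma cell genes (10) summed to between 1072 and 5358 CPM, and smooth muscle genes (8) summed to 11427 CPM in WT 4. Between 14749669 and 21557468 reads were counted per mouse. Ncor1 was at 134.7 ± 31.3 CPM (SD, n = 7) in WT and 50.6 ± 10.97 CPM (SD, n = 7) in IKO mice, without overlap. IKO 4 and WT 3 stood apart by their mitochondrial share, which was 50.3% and 23.9% of all counts, against 3.49% to 10.3% in the other 12 mice. The 12 B cell genes examined summed to 884.3 CPM in WT 3 and 419.4 CPM in WT 7, against 20.2 to 194.0 CPM in the other WT mice and 32.4 to 95.2 CPM in IKO mice. For some of the results, values without WT 3, WT 7 or IKO 4 are given beside those with all mice. In bulk RNA, fewer cells of a type and less RNA per cell cannot be told apart.

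Cd3g and Cd3d lie back to back on chromosome 9 and had nearly the same pattern over the mice, and Gzma and Gzmb, on chromosomes 13 and 14, also shared theirs, so the starts of these 4 genes are shown. Each stretch runs from 250 bases before to 50 bases after the start in RefSeq (GRCm38.p6). Capitals mark matches to 4 motifs, which were searched on both strands and did not overlap each other. The first was TGTGGT, the core that RUNX factors of cytotoxic T cells bind. The second motif searched was GGAAGT, a core of ETS factors. The next was CAGCTG, an E-box of the kind bound by basic helix-loop-helix factors. The last was AGGTCA, at which nuclear receptors bind, the class of factors that NCoR1 acts on. Cd3g is at chr9:44980382-44980681 on the minus strand, Cd3d at chr9:44981536-44981835 on the plus strand, Gzma at chr13:113100932-113101231 on the minus strand and Gzmb at chr14:56262285-56262584 on the minus strand.
Cd3g: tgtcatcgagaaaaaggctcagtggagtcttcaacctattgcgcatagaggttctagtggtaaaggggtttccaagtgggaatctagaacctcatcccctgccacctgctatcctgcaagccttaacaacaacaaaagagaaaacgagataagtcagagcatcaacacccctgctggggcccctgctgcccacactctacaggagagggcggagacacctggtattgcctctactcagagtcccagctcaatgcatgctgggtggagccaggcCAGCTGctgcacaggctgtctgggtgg
Cd3d: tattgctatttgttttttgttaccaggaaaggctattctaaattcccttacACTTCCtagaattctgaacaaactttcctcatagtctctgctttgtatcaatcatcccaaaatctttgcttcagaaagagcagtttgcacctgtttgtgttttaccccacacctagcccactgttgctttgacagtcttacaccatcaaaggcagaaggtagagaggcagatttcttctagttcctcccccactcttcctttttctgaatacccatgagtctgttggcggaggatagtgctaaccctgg
Gzma: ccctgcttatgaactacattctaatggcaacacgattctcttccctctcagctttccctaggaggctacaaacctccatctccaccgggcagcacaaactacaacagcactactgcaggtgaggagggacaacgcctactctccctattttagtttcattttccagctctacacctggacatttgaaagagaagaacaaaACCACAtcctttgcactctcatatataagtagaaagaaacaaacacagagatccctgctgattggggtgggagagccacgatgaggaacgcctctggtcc
Gzmb: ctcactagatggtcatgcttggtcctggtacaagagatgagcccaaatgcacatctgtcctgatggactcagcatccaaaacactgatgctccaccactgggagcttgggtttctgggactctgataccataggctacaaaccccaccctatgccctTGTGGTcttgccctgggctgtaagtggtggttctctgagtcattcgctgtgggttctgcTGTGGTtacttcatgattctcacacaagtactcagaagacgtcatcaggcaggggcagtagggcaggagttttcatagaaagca

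The RUNX core stood once in the Gzma stretch, at position 201 on the opposite strand, and at positions 158 and 217 of the Gzmb stretch, counted from the 5′ end. It was in 16.8% of the 32851 promoters of the same length. The ETS core stood in that of Cd3d (23.8% of all promoters) and the E-box in that of Cd3g (16.3%). The nuclear receptor motif (16.3% of all promoters) was in none of the promoters of the 7 members for which RefSeq gave one. In the deposited annotation the bodies of Cd3g and Cd3d are 1354 bases apart and the body of Cd3e, on the minus strand, ends 11400 bases beyond that of Cd3d, so that the starts of Cd3d and Cd3e are 27841 bases apart. These matches describe the letters only.

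Measured per kilobase of gene length, the order of the mean levels was the same in both genotypes. Ccl5, a chemokine that draws T cells, was at 52.7 ± 14.2 CPM per kilobase in WT and 81.6 ± 30.8 in IKO mice (SD, n = 7 each). Gzma, a tryptase of cytotoxic granules, followed with 39.0 ± 17.7 in WT and 78.0 ± 39.0 in IKO mice, on the same scale. The distance between Ccl5 and Gzma was within the larger SD in both genotypes. Gzmb, the granzyme that cleaves caspases, came next at 14.9 ± 5.4 and 25.5 ± 13.4 CPM per kilobase, and Cd8a, the α chain of the CD8 coreceptor, was after it at 7.19 ± 2.30 and 6.84 ± 2.20. The steps from Gzma to Gzmb, from Gzmb to Cd8a and from Cd8a to Cd3g were beyond the larger SD in both genotypes. Cd3g, Itgae and Cd3d lay between 4.19 and 4.55 CPM per kilobase in WT and between 3.27 and 3.70 in IKO mice and did not differ beyond their spread. Cd160, Cd3e and Cd4 stood last, at 2.29, 2.05 and 1.86 in WT and 1.86, 1.56 and 0.79 CPM per kilobase in IKO mice. In IKO mice the steps from Cd3d to Cd160 and from Cd3e to Cd4 were also beyond the larger SD, which they were not in WT mice.

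Between the genotypes, 0 of the 10 genes passed an adjusted p of 0.05 in the quasi-likelihood test of edgeR, with p adjusted over all genes after Benjamini and Hochberg, and 8.67% of all genes did. At an unadjusted p under 0.05 there were 4, Gzma, Gzmb and Ccl5 with a higher and Cd4 with a lower level in IKO mice, against 30.4% of all genes. DESeq2 called 2 of the 10, Cd4 (adjusted p = 0.034) and Gzma (adjusted p = 0.041), and 16.5% of all genes. In 0 of the 10 were the genotypes without overlap, against 3.10% of all genes. The median log2 fold change of the 10 genes was -0.30, beside -0.09 over all genes. It was 0.02 without WT 3 and IKO 4, and 0.14 without WT 3, WT 7 and IKO 4.

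**Figure D1:**
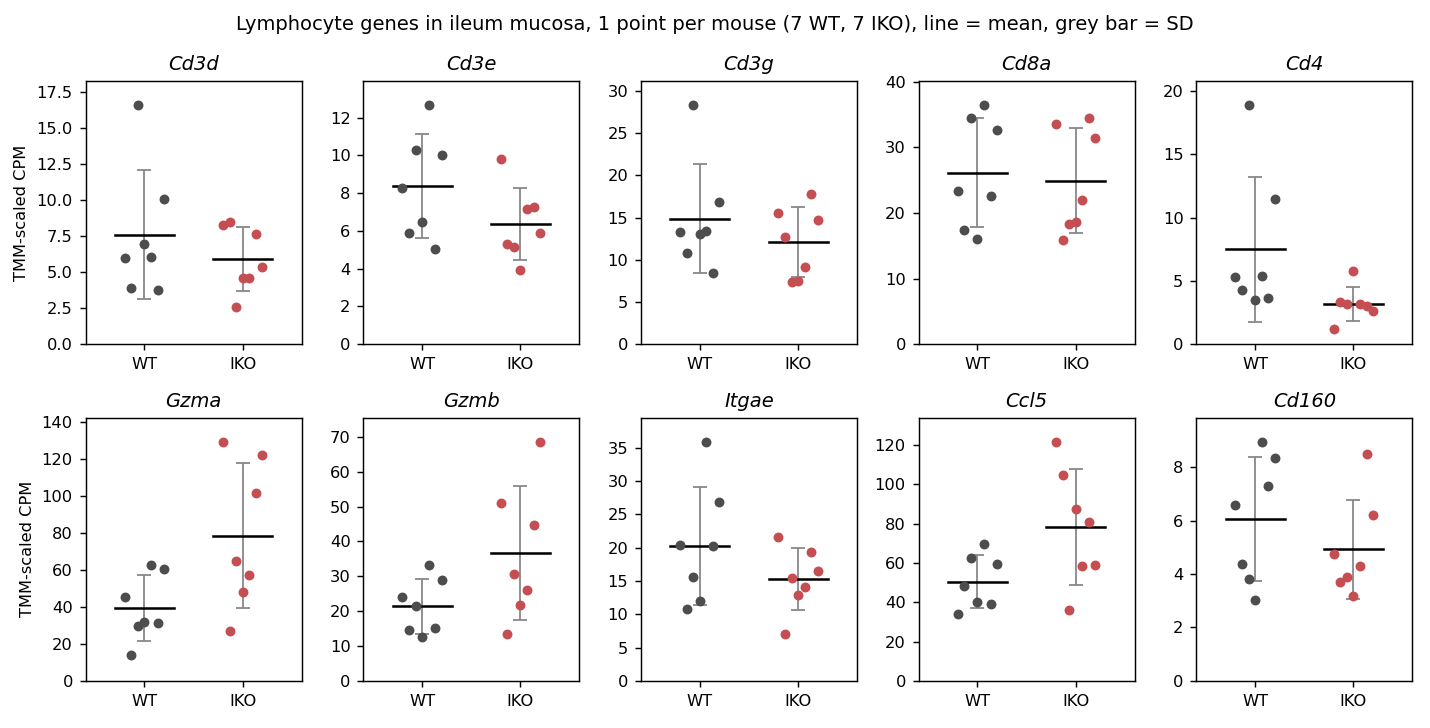
TMM-scaled CPM (linear axis from 0, 1 panel per gene) of the 10 lymphocyte genes in 7 WT and 7 IKO mice, with 1 point per mouse, a black line for the mean and a grey bar for the SD. For Gzma and Ccl5 4 IKO mice lie above all WT mice and for Gzmb 3, 6 IKO mice lie below all WT mice for Cd4, and the genotypes overlap in every panel.

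Gzma, Gzmb and Ccl5 were the 3 members with a higher mean in IKO mice, and none of them passed the edgeR test. Gzma had its lowest, median and highest values at 13.7, 31.8 and 62.6 CPM in WT and at 26.8, 64.7 and 129.1 CPM in IKO mice. IKO 1, IKO 7, IKO 6 and IKO 3 were above every WT mouse, and IKO 2 was the only IKO mouse below the WT median. For Gzma the difference came to 1.00 as a log2 fold change (standard error 0.36, edgeR adjusted p = 0.087), with an exact two-sided permutation p of 0.047 for this gene alone.

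Gzmb ranged over 12.6, 21.3 and 33.1 CPM (lowest, median and highest) in WT and over 13.3, 30.7 and 68.6 CPM in IKO mice. IKO 7, IKO 1 and IKO 6 exceeded all WT mice, and IKO 2 was again the IKO mouse below the WT median. For Gzmb the log2 fold change was 0.78 (standard error 0.33, edgeR adjusted p = 0.13, exact permutation p = 0.091). The same 3 IKO mice had the highest levels of both granzymes.

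Ccl5, which activated cytotoxic T cells secrete, was at 34.2, 48.4 and 69.9 CPM in WT and at 35.9, 81.0 and 121.8 CPM in IKO mice (lowest, median and highest). Here IKO 1, IKO 2, IKO 4 and IKO 6 were above all WT mice and IKO 3 was the lowest IKO mouse. The log2 fold change of Ccl5 was 0.63 (standard error 0.25, edgeR adjusted p = 0.11, exact permutation p = 0.057). IKO 2 was therefore high for Ccl5 and the lowest IKO mouse for Gzma and Gzmb.

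Cd4, the coreceptor of helper T cells that some macrophages and dendritic cells also carry, was the member with the largest log2 fold change in size. Its lowest, median and highest values were 3.51, 5.27 and 18.9 CPM in WT and 1.17, 3.15 and 5.79 CPM in IKO mice. All IKO mice but IKO 4 were below the lowest WT mouse. Its log2 fold change was -1.24 (standard error 0.42, edgeR adjusted p = 0.071, exact permutation p = 0.017). The highest values were those of WT 3 and, at 11.5 CPM, of WT 7, the mice with the most B cell RNA, and the other WT mice were between 3.51 and 5.39 CPM. As a log2 fold change, the Cd4 difference was -0.82 without WT 3 (adjusted p = 0.15), -1.11 without WT 7 (adjusted p = 0.13) and -0.68 without WT 3, WT 7 and IKO 4 (edgeR adjusted p = 0.20). The part of the B cell rich mice in the Cd4 difference was not tested beyond these values.

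**Figure D2:**
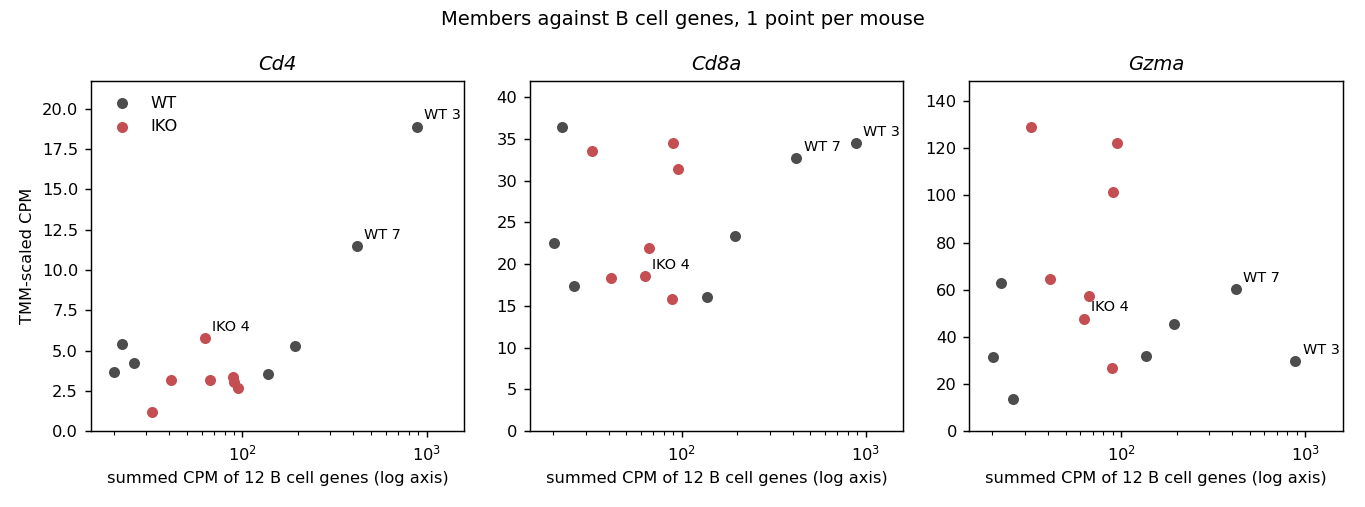
TMM-scaled CPM of Cd4, Cd8a and Gzma (linear axis) against the summed CPM of 12 B cell genes (log axis), with 1 point per mouse, WT in grey and IKO in red. WT 3 and WT 7, with sums of 884.3 and 419.4 CPM, have the highest Cd4. Their Cd8a, at 34.5 and 32.7 CPM, lies in the upper part of the range, and their Gzma is at 29.6 and 60.4 CPM.

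The CD3 chains, which carry the signal of the T cell receptor and mark all T cells, differed between the genotype means by less than the SD of the WT mice. Cd3e was at 5.05, 8.29 and 12.7 CPM in WT and at 3.94, 5.90 and 9.82 CPM in IKO mice (lowest, median and highest), with 6 of 7 IKO mice below the WT median. Its log2 fold change was -0.39 (95% confidence interval -0.92 to 0.14, edgeR adjusted p = 0.29). Cd3g spanned 8.44 to 28.3 CPM in WT and 7.37 to 17.8 CPM in IKO mice, with a log2 fold change of -0.30 (95% confidence interval -0.88 to 0.29, edgeR adjusted p = 0.48). Cd3d spanned 3.74 to 16.6 CPM in WT and 2.60 to 8.49 CPM in IKO mice, with a log2 fold change of -0.36 (95% confidence interval -1.10 to 0.39, edgeR adjusted p = 0.51). WT 3 held the highest Cd3d and Cd3g, and without WT 3 and IKO 4 their log2 fold changes were 0.01 and 0.03. That of Cd3e was -0.25 without WT 3 and IKO 4 and -0.18 without WT 3, WT 7 and IKO 4. The 95% confidence intervals of the CD3 chains still allow changes in either direction.

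Cd8a was at 16.1, 23.3 and 36.5 CPM in WT and at 15.9, 22.0 and 34.5 CPM in IKO mice, and the groups covered nearly the same range. The log2 fold change was -0.07 (95% confidence interval -0.58 to 0.44, edgeR adjusted p = 0.86), and it was 0.07 without WT 3 and IKO 4. Itgae was at 10.8, 20.2 and 35.9 CPM in WT and at 7.07, 15.5 and 21.57 CPM in IKO mice, with a log2 fold change of -0.40 (95% confidence interval -0.999 to 0.19, edgeR adjusted p = 0.34). WT 5 and WT 7 were above every IKO mouse. Cd160, a receptor of cytotoxic lymphocytes, was at 3.04, 6.58 and 8.95 CPM in WT and at 3.17, 4.28 and 8.49 CPM in IKO mice, with a log2 fold change of -0.30 (95% confidence interval -0.92 to 0.32, edgeR adjusted p = 0.51). For both Itgae and Cd160, 6 of 7 IKO mice were below the WT median.

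Of the members, 3 share ground with other genes of the table, and whether strand was used in the counting is not given in the sources used here. The first 68 bases of Cd160 lie on Pdzk1, a scaffold protein gene of enterocytes on the opposite strand, at 144.4 ± 77.8 CPM in WT and 237.6 ± 120.9 CPM in IKO mice (SD, n = 7 each). Haspin, of the opposite strand and at 5.44 ± 1.75 and 4.09 ± 0.36 CPM, lies within Itgae. Both Gm48719 and Gm48720, which overlap Cd3e, were under 0.1 CPM on average.

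**Figure D3:**
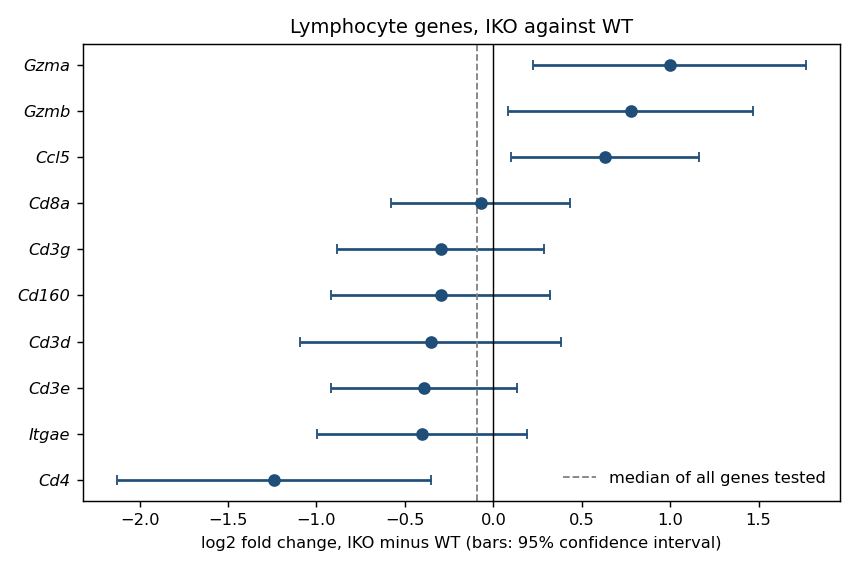
Log2 fold change (IKO minus WT) of the 10 lymphocyte genes, ordered by size, with points for the edgeR estimate and bars for the 95% confidence interval; the dashed line is the median of all genes tested. The intervals of Gzma, Gzmb and Ccl5 lie above 0, that of Cd4 below 0 and the other 6 across 0, before adjustment over genes.

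Set against Cd3e in the same mouse, the members fell into those that kept pace with it and those that did not. These ratios are differences of log2 CPM, for which no test was made. The log2 ratio of Gzma to Cd3e was 2.13 ± 0.55 in WT and 3.47 ± 0.65 in IKO mice (SD, n = 7 each), 1.34 higher, with 6 of 7 IKO mice above the highest WT mouse. That of Gzmb was 1.33 ± 0.24 in WT and 2.38 ± 0.68 in IKO mice, 1.05 higher, again with 6 of 7 IKO mice above all WT mice. IKO 2 was the exception for both granzymes.

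The log2 ratio of Ccl5 to Cd3e was 0.95 higher in IKO mice, with 5 of 7 above the highest WT mouse. Without WT 3 and IKO 4 the differences were 1.22 for Gzma, 0.99 for Gzmb and 0.80 for Ccl5, and without WT 7 as well they were 1.29, 1.02 and 0.79. The log2 ratio of Cd8a to Cd3e was 1.63 ± 0.26 in WT and 1.94 ± 0.33 in IKO mice, 0.30 higher. The WT median of this ratio was exceeded in 7 of 7 IKO mice and the highest WT mouse in 3. The ratios of Cd3d, Cd3g, Itgae and Cd160 to Cd3e differed by 0.10, 0.10, 0.02 and 0.11 between the genotypes, less than their SD within either one. That of Cd4 was 0.67 lower in IKO mice, with SDs of 0.70 in WT and 1.04 in IKO mice and 6 of 7 IKO mice below the WT median. Granzyme, Ccl5 and, by a smaller step, Cd8a RNA per Cd3e RNA was thus higher in most IKO mice. Cd3e itself was lower in IKO mice (log2 fold change -0.39), which raises every one of these ratios. With all mice Cd8a had a log2 fold change of -0.07, so its step then went with the lower Cd3e. Without WT 3, WT 7 and IKO 4 the log2 fold changes were 0.16 for Cd8a and -0.18 for Cd3e. The ratio of Cd8a to Cd3e was then 0.29 higher in IKO mice, so both genes had a part in it. The ratios of the other members differed by less than the SD of the WT mice.

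**Figure D4:**
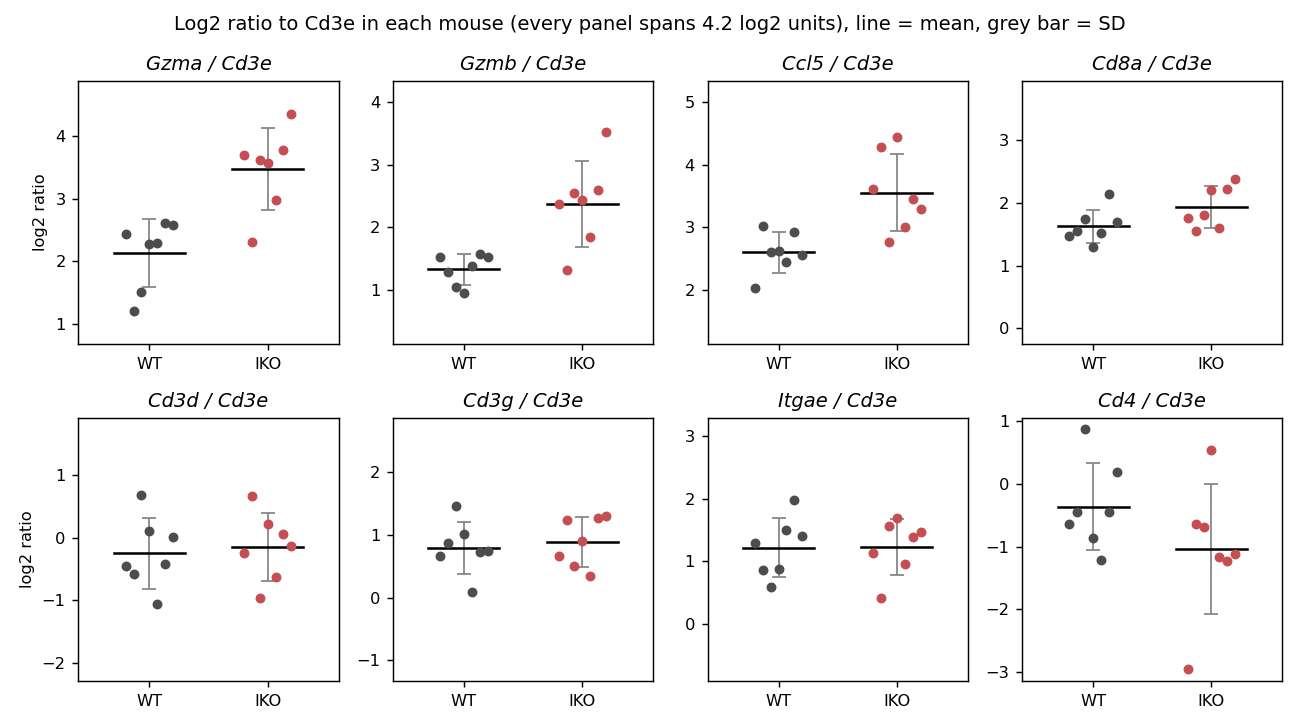
Log2 ratio of 8 members to Cd3e in each mouse, with 1 point per mouse, a black line for the mean and a grey bar for the SD, and the same length of axis in every panel. For Gzma and Gzmb 6 of 7 IKO mice lie above all WT mice, and for Cd3d, Cd3g and Itgae the genotypes cover nearly the same range.

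Cd3e was also set against a gene of all leukocytes and a gene of the epithelium. The log2 ratio of Cd3e to Ptprc, which encodes CD45, was -2.37 ± 0.78 in WT and -1.29 ± 1.00 in IKO mice, 1.08 higher, with 4 IKO mice above the WT range. The difference was 0.90 without WT 3 and IKO 4 and 0.66 without WT 3, WT 7 and IKO 4. Per Epcam, the epithelial adhesion molecule, the log2 ratio of Cd3e was -7.97 ± 0.68 in WT and -8.34 ± 0.77 in IKO mice, which overlapped widely. Ptprc itself was at 51.2 CPM in WT and 19.2 CPM in IKO mice on average (log2 fold change -1.41, edgeR adjusted p = 0.080). Without WT 3, WT 7 and IKO 4 the log2 fold change of Ptprc was -0.74 (edgeR adjusted p = 0.36).

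The mice differed from each other along more than one line. After each genotype mean was subtracted from the log2 CPM, the Pearson correlation over the 14 mice was 0.90 between Cd3d and Cd3g and 0.68 between Cd3d and Ccl5. It was 0.90 between Gzma and Gzmb, 0.90 between Gzma and Itgae, 0.87 between Cd8a and Gzmb and 0.76 between Itgae and Cd160. Across these sets the correlations of Cd3d with Gzma, Gzmb, Itgae and Cd160 ran from 0.01 to 0.21 and those of Ccl5 with the same 4 genes from 0.07 to 0.11. Cd3g lay between, at 0.46 with Gzmb, 0.36 with Gzma, 0.19 with Cd160 and 0.16 with Itgae. Cd3e and Cd8a were linked to both, Cd3e by 0.59 to Cd3d and 0.65 to Gzma and Cd8a by 0.50 and 0.80. Cd4 stood apart, with correlations of -0.14 to 0.42 with the other 9 members. All values come from the same 14 libraries and share their depth and scaling, so they are a description.

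**Figure D5:**
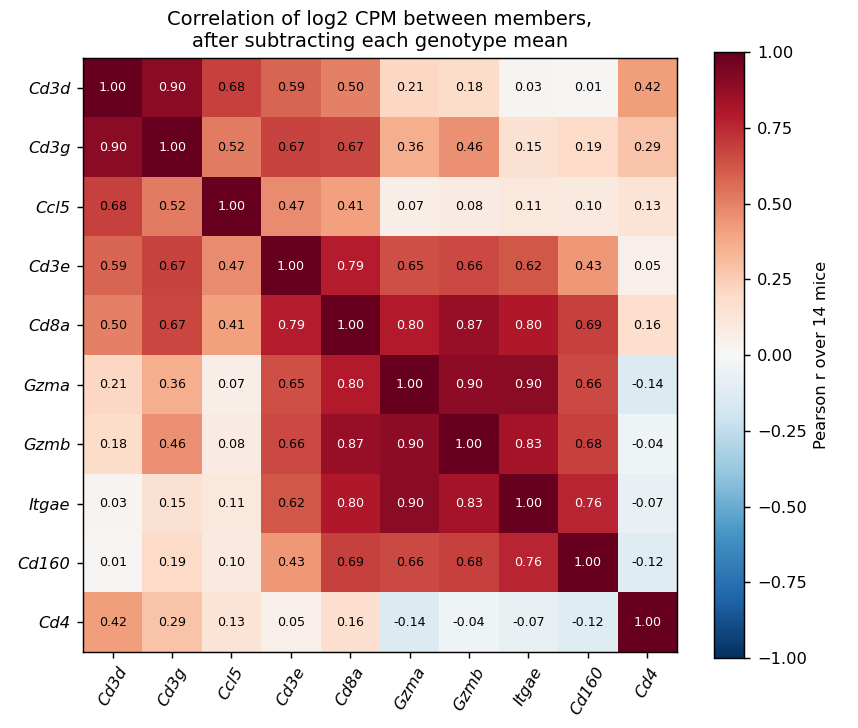
Pearson correlation over 14 mice of the log2 CPM of each pair of members after subtraction of the genotype mean (colour and number). Cd8a, Gzma, Gzmb, Itgae and Cd160 form a block with values of 0.66 to 0.90, Cd3d and Cd3g reach 0.90, and Cd4 does not pass 0.42 with any member.

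Among the other 13845 genes, the 10 whose pattern over the mice was most like that of Cd3e had correlations of 0.73 to 0.82. Among them were Spn (CD43, a sialoprotein of leukocytes), Plaur (the urokinase receptor), Hk2 (a hexokinase), Cd8a, Sla2 and Lat (adaptors of T cell receptor signalling), Tmem229b, Nkg7 (a cytotoxic granule protein) and Gpr18 (a receptor of intestinal T cells). Of these, Hk2 passed the edgeR test, with a log2 fold change of 1.05 (adjusted p = 0.042), and the other 9 did not. Among the genes most like Cd8a were H2-Q7 (0.89), a class I molecule, and the member Gzmb (0.87). The median correlation with Cd3e was 0.62 over the other 9 members, 0.45 over 12 pan-leukocyte genes, 0.30 over 12 B cell genes, -0.05 over 13 epithelial genes and 0.01 over all genes.

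The wider T cell genes were read in the same fit. Of 21 genes of the T cell receptor complex and its signalling, 18 (85.7%) were at a lower level in IKO mice, against 56.5% of all genes, with a median log2 fold change of -0.55. Past the test fell 2 of them, or 9.52%, near the 8.67% of all genes called. These were Cd27, a costimulatory receptor also found on B cells (3.19 CPM in WT and 0.91 CPM in IKO mice, log2 fold change -1.80, edgeR adjusted p = 0.032), and Ptpn22, a phosphatase of lymphocytes and myeloid cells (27.6 and 11.1 CPM, log2 fold change -1.31, edgeR adjusted p = 0.042). These calls were not stable. Cd27 was called in 12 of 27 and Ptpn22 in 13 of 28 alternatives, and 0 genes of the list were called when any 1 of WT 3, WT 7, IKO 1, IKO 2, IKO 4, IKO 5 or IKO 7 was left out. Over the 14 mice left out in turn, the adjusted p ran from 0.024 to 0.068 for Cd27 and from 0.015 to 0.092 for Ptpn22, which was also lost without WT 2 or IKO 3. The list's median was -0.39 without WT 3, -0.43 without WT 7, -0.53 without IKO 4 and -0.13 without all of these.

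The constant genes of the receptor chains, picked out after their values were seen, were not called either. Trac and Trbc1, of the αβ receptor, were at 11.1 ± 6.2 and 8.99 ± 4.66 CPM in WT and 7.70 ± 2.11 and 5.61 ± 2.21 CPM in IKO mice (log2 fold changes -0.52 and -0.68, edgeR adjusted p = 0.25 and 0.20). Trbc2, the β constant gene with more RNA, was at 16.4 ± 11.1 CPM in WT and 10.9 ± 3.8 CPM in IKO mice (log2 fold change -0.59, edgeR adjusted p = 0.27). Trdc, of the γδ receptor, was at 2.70 ± 1.04 CPM in WT and 3.44 ± 1.09 CPM in IKO mice, and 6 of 7 IKO mice exceeded the WT median (log2 fold change 0.35, edgeR adjusted p = 0.43). Tcrg-C1, a γ chain, was at 3.79 ± 0.90 and 4.197 ± 2.02 CPM (log2 fold change 0.15, edgeR adjusted p = 0.75). Tcrg-C2, the γ constant gene with the most RNA, was at 14.2 ± 5.2 and 11.5 ± 3.99 CPM (log2 fold change -0.30, edgeR adjusted p = 0.48), and Tcrg-C4 at 4.29 ± 1.26 and 3.53 ± 1.11 CPM (-0.28, adjusted p = 0.50). The genes of the γδ receptor thus differed in sign among themselves. The near-identical copies of the β and γ constant genes can split reads, so their single values are uncertain.

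Of 15 further CD8 and cytotoxic genes that passed the filter, 6 had a higher and 9 (60%) a lower level, against 56.5% of all genes. The median log2 fold change was -0.09 (0.33 without WT 3, WT 7 and IKO 4). By edgeR 0 were called, 1 was under an unadjusted p of 0.05 and DESeq2 called 0. Of all genes, these shares were 8.67%, 30.4% and 16.5%. The genes with the smallest p were Ctsw, a cathepsin of cytotoxic cells (17.8 CPM in WT and 9.24 CPM in IKO mice, log2 fold change -0.94, edgeR adjusted p = 0.085), and Nkg7 (10.01 and 12.9 CPM, log2 fold change 0.37, edgeR adjusted p = 0.25). Gzmk, another granzyme, and Prf1, which encodes perforin, were named after their values were seen. The log2 fold change was 0.10 for Gzmk (adjusted p = 0.88) and 0.06 for Prf1 (edgeR adjusted p = 0.93). The higher values of Gzma and Gzmb were thus not seen across the cytotoxic list.

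Of 18 genes of homing and residence, 16 (88.9%) had a lower level, with a median log2 fold change of -0.55, and 2 (11.1%) fell past the test, beside the 56.5% and 8.67% of all genes. Itga4, the integrin chain that brings lymphocytes to the gut wall, was at 12.6 CPM in WT and 3.87 CPM in IKO mice (log2 fold change -1.70, edgeR adjusted p = 0.040). Ahr, the aryl hydrocarbon receptor, which maintains intraepithelial lymphocytes and is also made by the epithelium, was at 7.96 and 3.92 CPM (log2 fold change -1.02, edgeR adjusted p = 0.035). Itga4 was called in 13 of 26 and Ahr in 15 of 28 alternatives. Neither was called when any 1 of WT 1, WT 7, IKO 1, IKO 2, IKO 4 or IKO 5 was left out, Itga4 was also lost without WT 3 or IKO 6, and Ahr also without WT 5, WT 6 or IKO 7. The adjusted p with 1 mouse left out reached 0.088 for Itga4 and 0.080 for Ahr. The list's median was -0.33 without WT 3 and IKO 4 and -0.18 without WT 7 as well.

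Of 15 helper and regulatory genes, 8 passed the filter, with a median log2 fold change of -0.29. Of the 8, 2 (25%) were at a higher level and rose past the test, against 8.67% of all genes called. The other 6 (75%) were at a lower level, against 56.5% of all genes. Bcl6, a repressor of transcription that follicular helper T cells and many other cells make, was at 14.6 CPM in WT and 29.99 CPM in IKO mice (log2 fold change 1.04, edgeR adjusted p = 0.013). Zbtb7b, the factor that sets the CD4 lineage and is also made by epithelia, was at 247.9 and 382.5 CPM (log2 fold change 0.63, edgeR adjusted p = 0.022). Per kilobase, Zbtb7b was at 44.3 CPM in WT mice, against 1.86 for Cd4. Bcl6 was called in 27 of 28 alternatives and Zbtb7b in 20. The adjusted p of Zbtb7b was 0.052 without WT 3 and IKO 4, and its call was also lost without IKO 1 or IKO 5 alone. Which cells made this RNA was not tested. The lower genes with the largest log2 fold changes, picked after their values were seen, were Cxcr5, the chemokine receptor of B cells and follicular helper T cells, and Tnfrsf4, a costimulatory receptor. The log2 fold change of Cxcr5 was -2.25 (edgeR adjusted p = 0.11, DESeq2 adjusted p = 0.040, and -0.64 without WT 3, WT 7 and IKO 4). That of Tnfrsf4 was -1.14 (edgeR adjusted p = 0.13). Foxp3, the factor of regulatory T cells, averaged 0.23 CPM in WT and 0.26 CPM in IKO mice and did not pass the filter.

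The partners that the members meet on epithelial cells were examined last. Of 16 such genes that passed the filter, 9 had a higher and 7 (43.8%) a lower level, against 56.5% of all genes. The 1 gene called (6.25%, against 8.67% of all genes) was Il7, a survival factor of lymphocytes. Il7 fell from 3.42 CPM in WT to 1.52 CPM in IKO mice (log2 fold change -1.16, edgeR adjusted p = 0.018, and 0.068 without WT 3, WT 7 and IKO 4). Cdh1, the E-cadherin bound by the product of Itgae, was at 679.6 and 937.8 CPM (log2 fold change 0.46, edgeR adjusted p = 0.30). Tnfrsf14, bound by the product of Cd160, was at 25.2 and 28.8 CPM (log2 fold change 0.19, edgeR adjusted p = 0.41). Il15, which sustains intraepithelial lymphocytes, was at 31.2 and 31.1 CPM, with a log2 fold change of -0.0022 (edgeR adjusted p = 0.997). These last 3 were named as the best known partners after their values were seen.

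Genes of other leukocytes moved with the same mice. All 12 pan-leukocyte genes and all 12 B cell genes were at a lower level in IKO mice (median log2 fold change -1.01 and -2.20), against 56.5% of all genes. Yet 0 of either list were called by edgeR, against 8.67% of all genes. At an unadjusted p under 0.05 there were 6 and 9, against 30.4% of all genes. DESeq2 called 2 and 0, against 16.5% of all genes. Among the genes with the smallest p were Ptprc of the former list, and Spib (log2 fold change -1.27, edgeR adjusted p = 0.093) and Pax5 (-2.72, adjusted p = 0.11) of the latter. Without WT 3, WT 7 and IKO 4 the medians were -0.02 and -0.34. By limma-voom with sample quality weights they were -0.25 and 0.26. The B cell sums of WT 2, WT 5 and WT 6, at 25.8, 22.2 and 20.2 CPM, were below that of every IKO mouse. The pan-leukocyte sum was 880.9 CPM in WT 3 and 682.9 CPM in WT 7, against 103.8 to 342.6 CPM in the other WT and 129.1 to 227.0 CPM in IKO mice. In WT 3 Gzma, at 29.6 CPM, was below the WT median and Gzmb, at 21.3 CPM, was the WT median, whereas in WT 7 both granzymes, at 60.4 and 29.0 CPM, were the second highest of the WT mice. What part these cells have in the lower values of the wider T cell lists was not tested.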

How the data were processed

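RNA of scraped ileum mucosa was sequenced in 7 WT and 7 IKO mice, 1 library each. According to the methods and the submitters' processing notes, the authors aligned 150-bp paired reads with HISAT2 2.0.5 (mm10) and counted reads per gene with featureCounts 1.5.0-p3, and they deposited whole-number counts. Filters and the use of strand are not given in the sources used here. The deposited FPKM equal the counts per gene length, scaled by median-ratio size factors and 1 constant. The KO columns were read as IKO.

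Counts were compared with edgeR 4.0.16 in R 4.3.3 (filterByExpr, TMM, glmQLFit, glmQLFTest, genotype as the only term), and p was adjusted over 13846 genes. Log2 levels used a prior count of 2. Exact permutation tests were two-sided over the 3432 divisions of the mice. The model was also run on simulated counts, with larger differences than those of the members and without outlying mice. That run does not show how well differences of the members' size are called here. The coordinates of all 10 members equal those of GENCODE M21 (GRCm38), and RefSeq gave promoters for 7 of them. The 10 genes, all lists and tests were chosen with earlier results of these data known. Named genes were the members, Ncor1, the genes past the test in each list (up to 4, or the 2 with the smallest p) and the 10 genes most like Cd3e. The T cell receptor γ genes were listed as Trgc and found as Tcrg-C. Alternatives were DESeq2 1.42.0, other scalings and filters, limma 3.58.1 on log2 FPKM, voom weights, a replicate block and mice left out. Results for some single genes are left out here. P-values measure the spread between these mice.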

Additional observations from a re-analysis of the deposited data

How the results depend on the processing

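Of the 10 lymphocyte genes, edgeR called 0, and 28 alternatives gave 0 to 2. DESeq2 and limma-voom with sample quality weights each called 2 (Cd4 and Gzma), scaling by library size alone and to epithelial genes each called 1 (Cd4), and the replicate block called 1 (Gzma, adjusted p = 0.0498). All other alternatives, each mouse left out included, called 0. Gzma, Gzmb and Ccl5 were higher and Cd4, Cd3e, Itgae and Cd160 lower in IKO mice under 28 of 28 alternatives. The log2 fold change of Gzma ran from 0.56 to 1.18, that of Gzmb from 0.37 to 0.98, that of Ccl5 from 0.23 to 0.74 and that of Cd4 from -1.71 to -0.55. The lowest value of each came from library size alone, where edgeR adjusted p was 0.32 for Gzma, 0.47 for Gzmb and 0.54 for Ccl5. The TMM factors that this scaling leaves out ran from 0.93 to 1.53 in WT and from 0.58 to 0.97 in IKO mice, so these values depend on the scaling. Without WT 3 and IKO 4 the log2 fold change was above 0 for Cd3d (0.011), Cd3g (0.027) and Cd8a (0.068), and without WT 3, WT 7 and IKO 4, a choice made after seeing the data, 0.21, 0.13 and 0.16. With voom weights it was 0.0055 for Cd3g and 0.026 for Cd8a. With 1 mouse left out, Cd8a ran from -0.16 to 0.031. The cause was not tested.

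Over all genes, edgeR called 1200 (607 higher, 593 lower in IKO mice). DESeq2 called 2571, voom weights 1889, library size alone 3380 (195 higher, 3185 lower) and epithelial scaling 2518 (249 higher, 2269 lower). The median log2 fold change of all genes was then -0.49 and -0.39, and relative to it Gzma stayed 1.05 and 1.01 higher. Without a filter 508 were called (346 higher, 162 lower), by limma on FPKM without a filter 614, without WT 3 and IKO 4 648, without WT 3, WT 7 and IKO 4 346, and with 1 mouse left out 515 to 1371, the lowest without IKO 5 and the highest without WT 2. It was under 1200 by over 1.5 times without IKO 1, IKO 2, IKO 5, IKO 7, WT 4 or WT 7. The replicate block called 362, but same-numbered mice correlated at -0.31 to 0.23, so the numbers do not pair them.

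Cd4 was at 20 counts in IKO 1, where counting noise alone is 22.4%. The intervals of Cd3d (-1.10 to 0.39) and Cd8a (-0.58 to 0.44), which are not adjusted over genes, still allow changes of these sizes with 7 mice per genotype. Those of Gzma (0.23 to 1.77) and Cd4 (-2.13 to -0.35) did not include 0, and edgeR still did not call these genes after adjustment.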

Other observations

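The members' ranks differed between single mice. Over the 10 genes, WT 5 had the highest mean rank of the 14 mice (3.5, where 1 is the highest level) and the highest level of 4 genes, and WT 7 and IKO 1 followed at 3.9 and 4.4. WT 2 had the lowest at 10.7. IKO 1 was the highest mouse for Gzma and Ccl5 and the lowest for Cd4. No group of 7 mice held a value far from the others by Dixon's criterion, over 42 groups and 21 measures of the members and their ratios.

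In the genes of other cells, Cd14, a receptor of macrophages that the epithelium can also make, rose from 5.27 CPM in WT to 8.96 CPM in IKO mice (log2 fold change 0.77, edgeR adjusted p = 0.033). It was the 1 gene called (7.14%) of 14 macrophage and dendritic cell genes, of which 11 (78.6%) were at a lower level (median log2 fold change -0.38). For this and the following lists, the shares of all genes were 56.5% at a lower level and 8.67% called by edgeR. Under an unadjusted p of 0.05 the share of all genes was 30.4%, and DESeq2 called 16.5%. Cd14 was called in 18 of 28 alternatives, and not without WT 1, WT 3, IKO 1, IKO 2, IKO 3 or IKO 5, with an adjusted p of up to 0.078. Siglecf, of eosinophils and some epithelial cells, fell from 5.94 to 2.35 CPM (log2 fold change -1.33, edgeR adjusted p = 0.024, 0.052 without WT 7 and 0.063 without WT 3 and IKO 4). Of 4 natural killer and innate lymphoid genes that passed the filter 0 were called by edgeR, 2 at an unadjusted p under 0.05 and 2 by DESeq2, and those with the smallest p were Tcf7 (log2 fold change -1.08, edgeR adjusted p = 0.075) and Il7r (-1.36, adjusted p = 0.080), which T cells also make.

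Of 10 plasma cell genes 0 were called by edgeR or DESeq2 and 1 was under an unadjusted p of 0.05. Irf4 (log2 fold change -1.25, edgeR adjusted p = 0.15) and Prdm1 (0.68, adjusted p = 0.18) had the smallest p. Of 13 epithelial genes 12 were at a higher level in IKO mice (median log2 fold change 0.37, and -0.05 when scaled by library size alone) and 0 were called, 2 at an unadjusted p under 0.05 and 2 by DESeq2, led by Lgals4 (log2 fold change 0.72, edgeR adjusted p = 0.067) and Krt20 (0.53, adjusted p = 0.16). Smooth muscle genes summed to 11427 CPM in WT 4, 837.9 CPM in IKO 1, 417.7 CPM in IKO 2 and 11.4 to 75.4 CPM in the other mice, with Smtn (log2 fold change -2.46, edgeR adjusted p = 0.12) and Synpo2 (-3.10, adjusted p = 0.14) at the smallest p of 8 genes. Of these, 0 were called by edgeR or DESeq2 and 2 were under an unadjusted p of 0.05, and the median over the 8 was -3.09 with WT 4 and 2.61 without it. Of 9 fibroblast and endothelial genes that passed the filter 0 were called by edgeR, 6 were under an unadjusted p of 0.05 and 1 was called by DESeq2, led by Pdgfra (-2.50, edgeR adjusted p = 0.057) and Pecam1 (-1.33, adjusted p = 0.095). Their sum was 377.8 CPM in WT 4 and 13.8 to 86.4 CPM in the other mice, and the median over the 9 was -1.46 with WT 4 and -0.69 without it. Without WT 4 the log2 fold change of Pdgfra was -1.10 (edgeR adjusted p = 0.19), and without WT 3, WT 7 and IKO 4 that of Pecam1 was -0.52.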
